A study of Rattus norvegicus with 8 samples.

Results

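The cathepsins are a set of 10 proteases (Ctsb, Ctsc, Ctsd, Ctse, Ctsh, Ctsk, Ctsl, Ctss, Ctsz and Ctsg) whose mRNAs were read out on 8 arrays of rat lung, lung tumor and blood. A probe was taken as a member where its RefSeq transcript belongs to a gene of that list. Of the 10 genes, 9 had a probe among the 13888 named genes of the array, each with 1 probe printed in 1 spot. Ctsz had no matching probe and was not analysed here.

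Most cathepsins are made as inactive precursors, carried to the lysosome and activated there at acid pH, where they break down proteins taken up by the cell. Ctsb, Ctsc, Ctsh, Ctsk, Ctsl, Ctss and Ctsz cut with a cysteine, Ctsd and Ctse with a pair of aspartates, and Ctsg with a serine. In the lung they are known from alveolar macrophages, from type 2 alveolar cells, where Ctsh takes part in the processing of surfactant proteins B and C, and from the granules of neutrophils. Released from cells, they can cut collagen and elastin, and cystatins hold them in check.

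All animals were male F344 rats sampled in week 95 of the study. Lung was sampled as 3 tumors and as 3 normal tissues matched to them, all from rats given NNK, a carcinogenic nitrosamine of tobacco smoke, so the normal lung had been exposed too. The blood groups were the clot of whole blood from 1 control rat and from 1 NNK-treated rat. RNA was hybridised, in 1 colour, to Arraystar's rat lncRNA array made by Agilent, which has 24684 probes, 15323 of them for mRNAs. The study describes the tumors as independent samples with matched normal tissue, without saying which rats they came from. The p-values measure the spread between these arrays, part of which may be technical. Among the 3 normal lung arrays, and between some of the tumor arrays, this spread was below the noise between the spots of a probe. No spread between animals can be seen there. The standard errors, intervals and p-values may therefore cover less than the spread between animals.

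Several arrays stood close together or apart before any comparison. The 3 normal lung arrays differed from each other by less than the noise between the spots of a probe (observed over expected squared difference of 0.457 to 0.783), and so did lung tumors 2 and 3 (0.46), whereas lung tumor 1 differed from these 2 by ratios of 2.85 and 3.18. Arrays that differed by less than this noise, counted once, leave 1 normal and 2 tumor samples. The scan time in the file headers put the 3 normal arrays and tumor 1 in one scan, tumors 2 and 3 in another, and both blood arrays in the third. The scanner software marked 15.9 to 25.3% of the well-measured spots on tumor arrays as outliers, against 4.92 to 8.62% on normal lung arrays. The 75th percentile of the signal was 1191 to 1329 on the lung arrays, but 95.36 for control blood and 205.8 for NNK blood.

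Ctsc and Ctsh rose in lung tumor, Ctse, Ctss and Ctsd were higher by less than 2-fold, and Ctsb, Ctsk and Ctsl were lower by less than 2-fold. Values in lung are log2 processed signals, quantile-normalized over the 6 lung arrays. A gene was called where it differed at least 2-fold with a Benjamini-Hochberg adjusted p of at most 0.05 in limma. With outlier-marked spots left out, 5 cathepsins could be tested (Ctsb, Ctsd, Ctsh, Ctsl and Ctss) and 1 was called higher and 0 lower, where 13.5% of all 12471 probes tested were called higher and 15.5% lower. By the adjusted p alone, at any fold, 3 of the 5 were higher and 2 lower, against 33.7% and 31.4% of all probes. With marked spots kept, 8 cathepsins were tested and 2 were called higher and 0 lower, where the shares over 15803 probes were 13.5% and 14.4%. By the adjusted p alone 5 were higher and 3 lower, against 34.5% and 31.6%. All 3 tumor arrays lay above all 3 normal arrays for these 5 genes and below them for these 3, an arrangement shown by 38.3% and 34.7% of all probes.

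**Figure D1:**
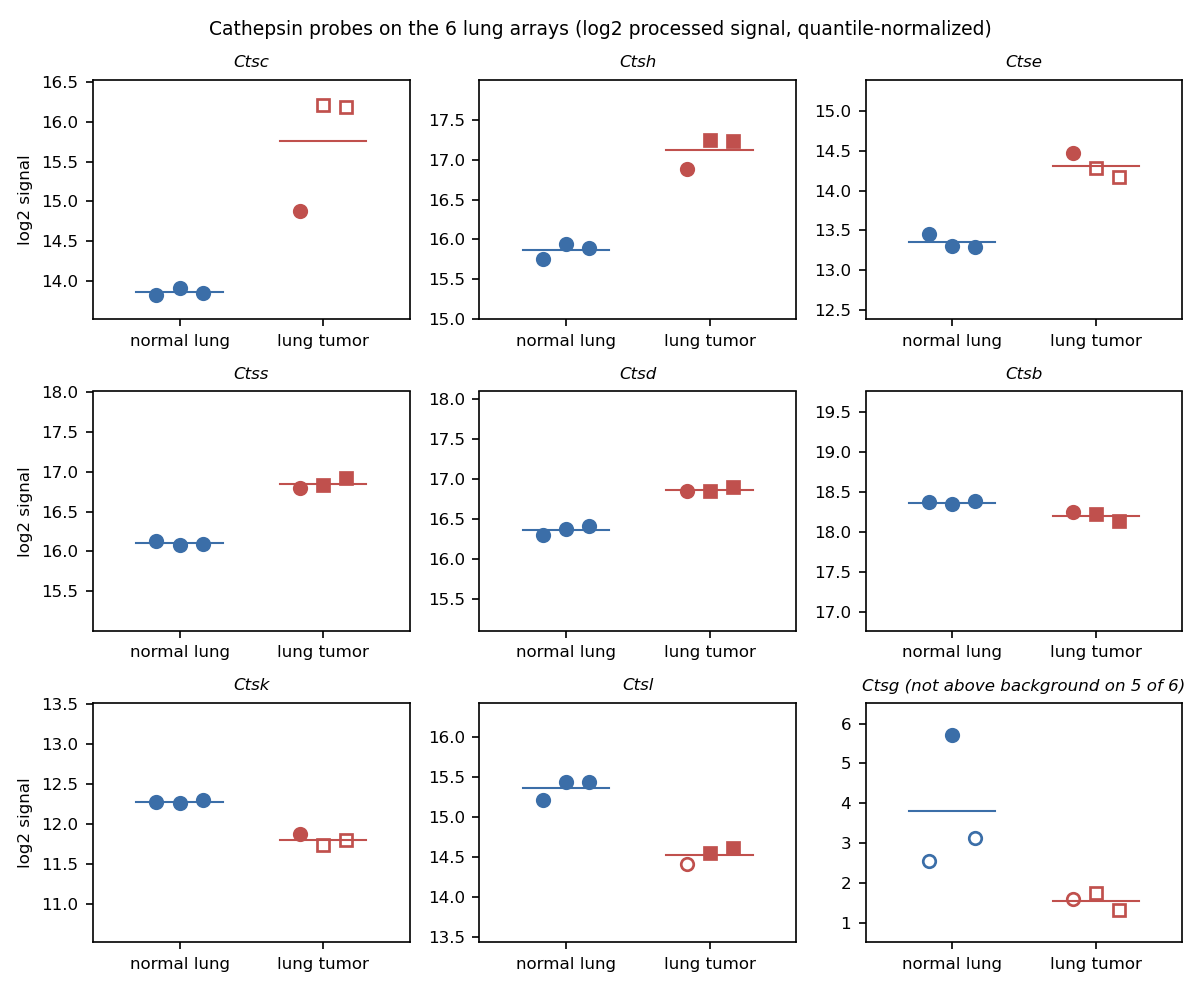
Signal of the 9 cathepsin probes on the 6 lung arrays, as log2 quantile-normalized processed signal (each panel has its own range, 6 log2 units high for Ctsg and 3 for the others). Circles are arrays of the first scan and squares tumors 2 and 3 of the other scan, horizontal lines are group means, and open symbols are spots marked as outliers or, for Ctsg, not well above background. For Ctsc the arrays of tumors 2 and 3 lie at 16.22 and 16.18, far above tumor 1 at 14.88.

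Ctsh, an aminopeptidase of type 2 alveolar cells and macrophages, had log2 signals of 15.76, 15.94 and 15.90 in normal lung and of 16.89, 17.24 and 17.23 in lung tumor. The lowest tumor array thus stood above the highest normal array. The difference was 1.26 ± 0.12 (log2, SE, n = 3 per group), a 2.39-fold rise with an adjusted p of 0.00042 in limma. Within the first scan, where tumor 1 is set against the 3 normal arrays, it was 1.02, a value of 1 tumor array with no test. Counting arrays that were near-identical as 1 sample gave 1.20 and ended the call (adjusted p = 0.0894).

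Ctsc, or dipeptidyl peptidase I, trims the amino end of granule serine proteases and so activates them. Its signals were 13.83, 13.91 and 13.86 in normal lung, 14.88 in tumor 1, and 16.22 and 16.18 in tumors 2 and 3. The spot was marked as an outlier on the last 2 arrays, so its test rests on the fit that keeps such spots. There it rose by 1.89 ± 0.38 (log2, SE), or 3.71-fold, with an adjusted p of 0.00699 in limma and a 95% interval of 0.94 to 2.85. With the tissues taken as matched pairs, the methods' paired t-test ended the call (Benjamini-Hochberg adjusted p = 0.0828), whereas limma with the replicate block kept it (adjusted p = 0.0143). Tumor 1 alone stood 1.01 above the mean of normal lung, and tumors 2 and 3 stood 2.33 above it, so the size differed between the tumor arrays. Tumors 2 and 3 were also the arrays of the other scan and the ones with the marked spot. Tumor, scan and spot cannot be told apart here. Within the first scan the 1.01 of tumor 1 is the whole value, with no test. Counting near-identical arrays once ended the call (1.67, adjusted p = 0.187).

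Among the aspartic cathepsins, Ctse, known from the erythrocyte membrane and from epithelia, had signals of 13.46, 13.31 and 13.30 in normal lung and of 14.48, 14.28 and 14.17 in tumor. It was marked on tumor arrays 2 and 3, and with these spots kept it was 0.96 ± 0.10 higher in tumor (1.94-fold, adjusted p = 0.000506 in limma). Ctse thus lay just under the 2-fold limit. Tumor 1 alone, the tumor array of the first scan, stood 1.12 above the mean of normal lung, and on the authors' normalized values the difference was 1.01. Ctsd, the major lysosomal aspartic protease, had 16.30, 16.38 and 16.41 in normal lung against 16.85, 16.85 and 16.90 in tumor. Its difference of 0.50 ± 0.06 (adjusted p = 0.000764) was nearly the same in tumor 1 (0.49) and in the other two tumors (0.51).

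Ctss, a cysteine endopeptidase of antigen-presenting cells that cuts the invariant chain of MHC class II molecules, had 16.14, 16.09 and 16.09 in normal lung and 16.80, 16.83 and 16.92 in tumor. It was 0.75 ± 0.06 higher (1.68-fold, adjusted p = 0.000172 in limma), and 0.69 higher within the first scan. The invariant chain itself, Cd74, was called higher in the same arrays, by 1.00 ± 0.14 (adjusted p = 0.00328). Its call sat on the 2-fold limit and was lost under 10 of 21 alternative settings.

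The other cysteine endopeptidases were lower in tumor. Ctsl, a broad lysosomal endopeptidase, had 15.21, 15.44 and 15.44 in normal lung and 14.42, 14.56 and 14.61 in tumor, the spot of tumor 1 being marked. Without that array's value it was 0.78 ± 0.10 lower in tumor (log2 difference of -0.78, n = 3 and 2, adjusted p = 0.00274 in limma), and with it the difference was -0.84. Ctsk, the collagen-cutting cathepsin of osteoclasts, had 12.28, 12.26 and 12.30 in normal lung and 11.87, 11.73 and 11.80 in tumor, a difference of -0.48 ± 0.06 with marked spots kept (adjusted p = 0.000988). Ctsb, which cuts both inside proteins and at their carboxyl end, differed least. Its signals of 18.37, 18.35 and 18.39 in normal lung and of 18.25, 18.23 and 18.14 in tumor gave -0.17 ± 0.05 (adjusted p = 0.0408 in limma), and tumor 1 alone stood at -0.12. This small difference depended on the scaling: under the 75th percentile shift it was -0.04 (adjusted p = 0.652 in limma). With the replicate block the adjusted p in limma was 0.113. Before normalization the groups overlapped, with processed signals of 310240, 328740 and 327860 in normal lung and of 333760, 315350 and 312920 in tumor.

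Ctsg, a serine protease of neutrophil azurophil granules, was hardly measurable in lung. Its processed signal was 4.67, 53.7 and 7.47 in normal lung and 2.67, 4.04 and 2.37 in tumor. Only normal lung array 2 was well above background, so the probe was not tested. The genes Prtn3 and Elane, 2 further granule proteases that Ctsc activates, gave no lung value either: Prtn3 stood at background on all 8 arrays, and Elane was not analysed here.

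**Figure D2:**
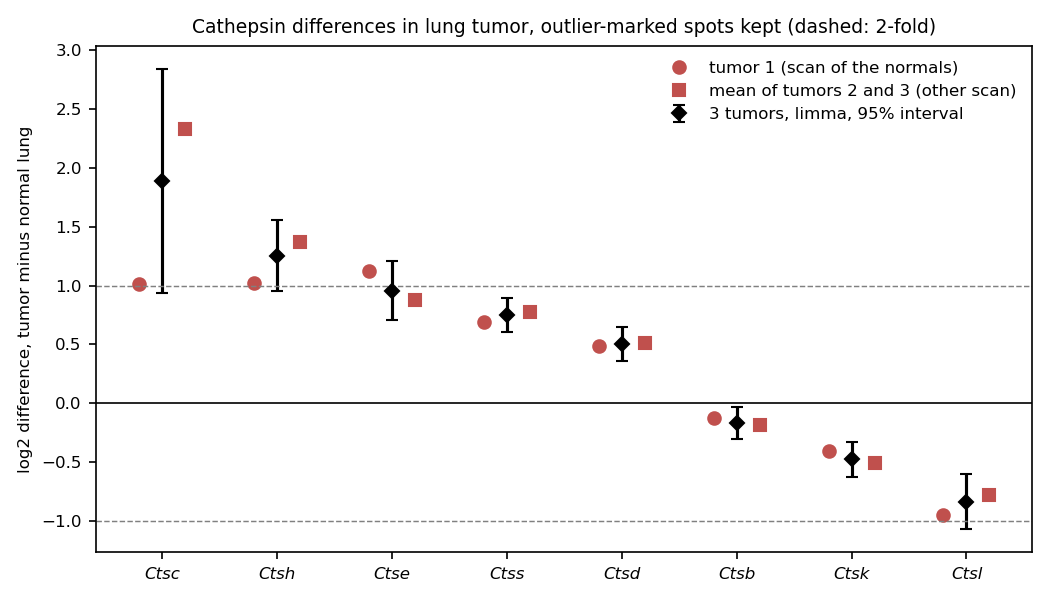
Log2 difference of each tested cathepsin, lung tumor minus normal lung, with outlier-marked spots kept. Diamonds are the limma estimates over 3 tumor and 3 normal arrays with their 95% intervals, circles tumor 1 alone and squares the mean of tumors 2 and 3, each against the mean of the normal arrays; dashed lines mark 2-fold. Every gene keeps its direction in both sets of tumors, and Ctsc spreads the widest, from 1.01 to 2.33.

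The stretch around the transcription start is shown for the pair of cathepsins called higher (Ctsh and Ctsc), for Ctsd, whose window holds an E-box, and for Ctsl, which had the most negative difference. RefSeq's GRCr8 assembly gave such a window, 250 bases before to 50 after the start, for 9 of the 10 genes, Ctsb excepted. Capitals mark the letters of 5 motifs read on both strands: the E-box CACGTG, the AP-1 site TGACTCA, the GC box GGGCGG, the TATA box TATAAA and the CCAAT box CCAAT. The E-box letters are the core of the motif bound by Tfeb, the transcription factor of lysosomal genes. The windows are chr8:99488506-99488805 (plus strand) for Ctsh, chr1:151440799-151441098 (plus strand) for Ctsc, chr1:206968772-206969071 (minus strand) for Ctsd and chr17:769854-770153 (plus strand) for Ctsl.
Ctsh: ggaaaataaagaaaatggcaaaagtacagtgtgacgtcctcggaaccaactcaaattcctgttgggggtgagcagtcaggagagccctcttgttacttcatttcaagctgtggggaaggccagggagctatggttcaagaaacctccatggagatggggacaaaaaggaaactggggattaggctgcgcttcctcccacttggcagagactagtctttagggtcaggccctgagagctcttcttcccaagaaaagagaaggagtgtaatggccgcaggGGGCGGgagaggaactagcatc
Ctsc: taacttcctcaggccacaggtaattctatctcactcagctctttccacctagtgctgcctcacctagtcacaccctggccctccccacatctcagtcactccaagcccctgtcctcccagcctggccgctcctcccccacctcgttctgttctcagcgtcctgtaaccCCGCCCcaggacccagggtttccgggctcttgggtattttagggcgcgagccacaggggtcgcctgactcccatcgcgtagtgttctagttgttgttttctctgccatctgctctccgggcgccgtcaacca
Ctsd: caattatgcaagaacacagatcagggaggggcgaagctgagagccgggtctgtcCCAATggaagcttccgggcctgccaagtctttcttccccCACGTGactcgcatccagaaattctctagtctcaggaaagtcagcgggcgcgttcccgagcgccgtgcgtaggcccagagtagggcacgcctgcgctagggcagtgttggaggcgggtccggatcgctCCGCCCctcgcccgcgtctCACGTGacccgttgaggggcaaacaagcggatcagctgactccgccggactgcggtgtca
Ctsl: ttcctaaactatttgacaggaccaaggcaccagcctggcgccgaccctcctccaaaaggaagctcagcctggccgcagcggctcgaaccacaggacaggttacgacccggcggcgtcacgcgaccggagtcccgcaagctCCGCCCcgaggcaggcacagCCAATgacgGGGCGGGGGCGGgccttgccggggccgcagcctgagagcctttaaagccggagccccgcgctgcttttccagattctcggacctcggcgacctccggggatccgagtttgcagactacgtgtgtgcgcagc

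Ctsd held 2 E-box matches, at positions -157 and -10 from the start, and no other window of the 9 held any, where 6.42% of 33469 rat promoter windows of this length do. Ctsh, Ctsc and Ctsd held 1 GC box each, and Ctsl and Ctsz held 3 each, where 33.1% of all windows hold at least 1. In Ctsl, 2 of them stood end to end and 1 on the opposite strand. A CCAAT box (37.5% of all windows) was found in Ctsd, Ctsk, Ctsl, Ctss and Ctsg, and the TATA letters (14.2%) in Ctss and Ctsg. The AP-1 letters (4.63% of all windows) were in none of the 9. The share of G and C ran from 45.3% in Ctss to 66.7% in Ctsl, with a median of 51.7% over all windows. Ctsk and Ctss are neighbours on chromosome 2, with starts 27.8 kb apart, and their differences in tumor were -0.48 and 0.75. Matches are letters in a window and were not tested as binding sites.

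Genes that work with the cathepsins were called in both directions and, with all lists pooled, in no larger share than other probes. Of 129 relatives, inhibitors, lysosomal genes and partners listed, 105 had a probe and 66 were tested with marked spots left out, of which 7 were called higher and 7 lower. Over all probes the shares were 13.5% and 15.5%, so the listed genes lay below both. With marked spots kept, 93 were tested, 12 called higher and 9 lower, again below the 13.5% and 14.4% of all probes. These shares of all probes are also the background of the lists that follow. The median difference was 0.09 over the 66 genes and 0.07 over all probes tested, and 0.14 and 0.06 with marked spots kept. By the adjusted p alone, with marked spots kept, 40 of the 93 genes were higher and 28 lower. The shares of all probes by that rule were 34.5% and 31.6%.

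The relatives stood in no call. All 4 that could be tested with marked spots kept gave values under 2-fold: Napsa, an aspartic protease of type 2 cells, was 0.99 higher in tumor, Ctsa, a lysosomal carboxypeptidase, 0.77 higher, and Ctsf and Lgmn, both cysteine proteases, differed by -0.23 and -0.09. The adjusted p was 4.06e-05 for Napsa and 0.422 for Lgmn.

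Of 14 inhibitors tested, 2 were called higher and 3 lower, against 13.5% and 15.5% of all probes, with a median of -0.47. By the adjusted p alone, 4 of the 14 were higher and 7 lower, against 33.7% and 31.4% of all probes. These gaps rest on few genes and were not tested. Kng2 and A2m, a kininogen with cystatin domains and a broad protease trap, rose by 2.49 and 1.97. Serpina3c, a serpin, was well above background on the 3 normal arrays and on 0 of 3 tumor arrays, so it was at least 57.5-fold lower (adjusted p = 0.000102 in limma). Serpina1, which inhibits neutrophil elastase, fell by 2.51, and Cst7, a cystatin of immune cells that inhibits Ctsc, fell by 1.47. The call of Cst7 was lost with near-identical arrays counted once (-1.42, adjusted p = 0.0628), where those of the other 4 held. The abundant cystatins changed little: Cst3, which is secreted, differed by -0.38, and Cstb, which acts inside cells, by 0.34. Kng1, a further kininogen, rose by 2.45 with marked spots kept.

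Of 22 lysosomal hydrolases tested, 4 were called higher and 3 lower (median 0.22), and with marked spots kept 7 and 3 of 34 (median 0.52), against 13.5% higher and 15.5 or 14.4% lower over all probes. The share called higher lay above that of all probes, but the gap rests on few genes and was not tested. By the adjusted p alone, 21 of the 34 were higher and 9 lower, against 34.5% and 31.6% of all probes. Gm2a, a cofactor in ganglioside breakdown, rose by 1.84, and Dnase2, which degrades DNA, rose by 1.56, and each of these calls was lost under 2 of 21 alternative settings. Hyal2, a hyaluronidase, fell by 2.18, Glb1 by 1.36 and Arsa by 1.06. The call of Arsa was lost under 12 of 21 alternative settings and that of Glb1 under 5. Keeping marked spots added Prcp, a carboxypeptidase, at 1.81 and Ifi30, a thiol reductase that acts with cathepsins in antigen processing, at 1.46. The lysosomal membrane, proton pump and delivery list had 0 calls among 20 tested, and 0 of 28 with marked spots kept, and 8 and 6 of those 28 passed the adjusted p alone in the 2 directions, below the 34.5% and 31.6% of all probes. Its medians were 0.09 and 0.02.

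**Figure D3:**
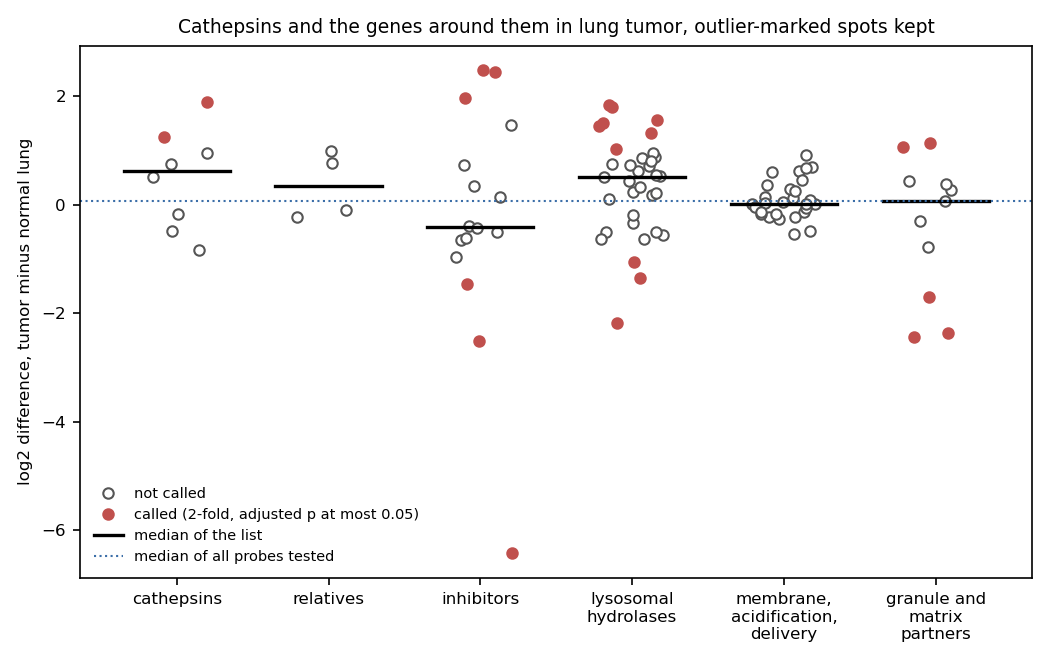
Log2 difference, lung tumor minus normal lung, of each tested gene with outlier-marked spots kept, by list; filled points were called, open points were not, black bars are list medians and the dotted line is the median of all probes. The cathepsin median is 0.63, and the membrane, acidification and delivery list stays between the 2-fold limits. The lowest point of the inhibitors, Serpina3c, was not above background in tumor.

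The substrates and targets split as well. Sftpc, whose protein Ctsh helps to process, was called higher with marked spots kept (1.14, adjusted p = 0.000258 in limma), with 15.12, 15.27 and 15.24 in normal lung and 16.54, 16.23 and 16.28 in tumor. Counting near-identical arrays once ended this call (1.18, adjusted p = 0.0671). Sftpb, also processed by Ctsh, differed by -0.30 (adjusted p = 0.0133). Gzma and Gzmb, granzymes that Ctsc activates, were lower with marked spots kept, where Gzma fell by 2.37 and Gzmb fell by 2.44, and Cma1, a mast cell chymase, fell by 1.70. These 3 are proteases of lymphocytes and mast cells.

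Marker genes of the cells that carry cathepsins differed between the lung groups too, counted here with marked spots kept, where 13.5% of all probes were called higher and 14.4% lower. Of 16 macrophage markers with a probe, 14 were tested, 3 called higher and 0 lower, and their summed signal ran from 237100 to 251400 in normal lung and from 321000 to 344500 in tumor; Marco and Cd163 were above background on no lung array. The markers did not move as one: Chi3l1 and Mrc1, both among the brightest, were 1.47 and 0.36 higher, but Csf1r, the receptor of a macrophage growth factor, and Adgre1, a surface marker, were lower (-0.77 and -0.23, adjusted p = 0.000188 and 0.00992 in limma). The 8 type 2 alveolar markers had 2 called higher and 0 lower, with summed signals of 991600 to 1033000 and of 1141000 to 1183000. By the adjusted p alone 5 were higher and 2 lower. The lower ones were Sftpa1 and Sftpb, the brightest of the list in normal lung (-0.26 and -0.30, adjusted p = 0.0173 and 0.0127 in limma). Of 9 neutrophil markers tested, 1 was higher and 4 lower (16660 to 17560 against 7264 to 8263). The 1 higher was Ly6g6c (1.48), which was not checked as a marker of neutrophils. The mast cell list had 2 of 6 lower (2641 to 2819 against 1588 to 1667). Of 8 red blood cell markers 6 were lower (439000 to 449200 against 263900 to 295200), while Ctse was higher. The part of these cells in the cathepsin values was not tested, and in such bulk samples fewer cells of a type and less RNA per cell cannot be told apart. Genes called lower were 1 of 8 tested in the T cell list, 1 of 5 in the B cell list and 4 of 5 in the platelet list. The summed signal fell for T cell markers (20300 to 21170 in normal lung against 11150 to 12680 in tumor). It rose for B cell markers (30340 to 30740 against 50210 to 53900) and for platelet markers (5210 to 5530 against 7791 to 9122). Pf4, the brightest platelet marker in lung, was 0.98 higher in tumor (adjusted p = 0.000203 in limma). Called lower in the fibroblast list were 1 of 7 (summed signal of 88870 to 94430 against 57530 to 60280), and in the endothelial list 4 of 4. In the B cell list 1 of 5 genes, Cd79b, was called higher. It was above background on 0 of 3 normal arrays, which makes it at least 1.58-fold higher, a bound under the 2-fold limit. The summed signal of the endothelial markers was 232600 to 242100 in normal lung and 47680 to 48360 in tumor.

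Between the blood arrays, Ctss was at least 2-fold higher in NNK blood, and Ctsg was at least 2-fold lower only after normalization. With 1 array per group there was no test, and the values compare 2 arrays. Of 8 cathepsins above background on at least 1 blood array, 1 was at least 2-fold higher in NNK blood and 1 at least 2-fold lower, where 18.6% of 14452 probes were higher and 15.0% lower. The processed signal of Ctss was 1032 in control blood and 5129 in NNK blood, and its normalized level was 3.79-fold higher (log2 difference of 1.92). Across 8 other settings that difference ran from 1.20 to 1.92.

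Ctsh and Ctsc, which rose in the tumors, had processed signals of 909 and 33.5 in control blood and of 1954 and 114 in NNK blood, with normalized log2 differences of 0.57 and 0.52. Under a 75th percentile shift the value for Ctsh was -0.01. Ctsl was not well above background in control blood (2.39) and reached 44.4 in NNK blood, which makes it at least 1.39-fold higher. Ctsk was above background on neither array (8.63 and 6.25).

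Ctsb, Ctsd and Ctse were dimmer in NNK blood, with signals of 380140 and 260470, of 25799 and 19936, and of 7275 and 4406. Their log2 differences of -0.81, -0.47 and -0.90 stayed under 2-fold with quantile normalization and reached -1.66, -1.48 and -1.83 with the 75th percentile shift. Ctsg had nearly equal raw signals of 139.3 and 137.9, and its normalized level was 2.20-fold lower in NNK blood, so its call came with the scaling. Across 8 other settings its log2 difference ran from -1.95 to -0.72. The median over all probes compared was -0.08 with quantile normalization and -0.17 with the shift.

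Marker lists moved between the blood arrays as well, to be read against the 18.6% of all probes at least 2-fold higher and 15.0% lower. The summed signal of neutrophil markers was 33620 in control blood and 79570 in NNK blood, with 4 of 9 higher and 1 lower. S100a8 (log2 signals of 13.71 and 16.04) and Ly6g6c (14.13 and 12.77) made up most of these sums and went opposite ways. Ly6g6c was the 1 listed gene that was lower. It was not checked as a marker of neutrophils, so the sums and the split of this list may not describe neutrophils. That of macrophage markers was 14700 and 24500, with 4 of 11 higher and 1 lower. T cell and B cell markers had 5 of 9 and 3 of 5 higher, platelet markers 4 of 5 lower, and red blood cell markers 0 of 8 either way (3282000 and 3244000). Most of the red blood cell sum came from Hbb, Hbb-b1, Hba-a1, Hba-a2 and Alas2. These lay at the top of both arrays, where quantile normalization sets near-equal values, so the sum cannot show whether they changed. The dimmer Slc4a1, Ahsp and Epb42 differed by -0.82, -0.84 and -0.43. The part of these cell types in the cathepsin values of blood was not tested.

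Set against normal lung, control blood had its own order of cathepsins. With all 8 arrays normalized together, 35.3% of 18325 probes were at least 2-fold higher in control blood than the mean of normal lung and 42.7% lower, and among the cathepsins 2 were higher and 5 lower. Ctsg had a log2 signal of 10.37 in control blood and of 2.52 to 5.49 on the normal lung arrays, of which 1 of 3 was above background, so no exact difference is given. Ctse was 2.61 higher. Ctsh and Ctss were lower by about the same amount (log2 differences of -2.18 and -2.35), and Ctsc by far more (-5.95). Ctsk and Ctsl were not above background in control blood, which makes them at least 94.2-fold and 931-fold lower than in normal lung, and at least 33.3-fold and 279.5-fold lower with a 75th percentile shift.

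Ctsb and Ctsd differed least between the tissues, with -0.26 and 0.37, and their values depended on the scaling. With the 75th percentile shift Ctsb was 3.94 and Ctsd 2.01 higher in blood, and on the authors' values -0.38 and 0.39. The other differences kept their direction under the 3 scalings, with 2.61 to 3.09 for Ctse, -2.39 to -2.16 for Ctss and -5.95 to -5.19 for Ctsc, and Ctsh was 4.01-fold to 5.07-fold lower in blood. Tissue and scan cannot be told apart in this comparison, since the blood arrays were scanned apart from the lung arrays.

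**Figure D4:**
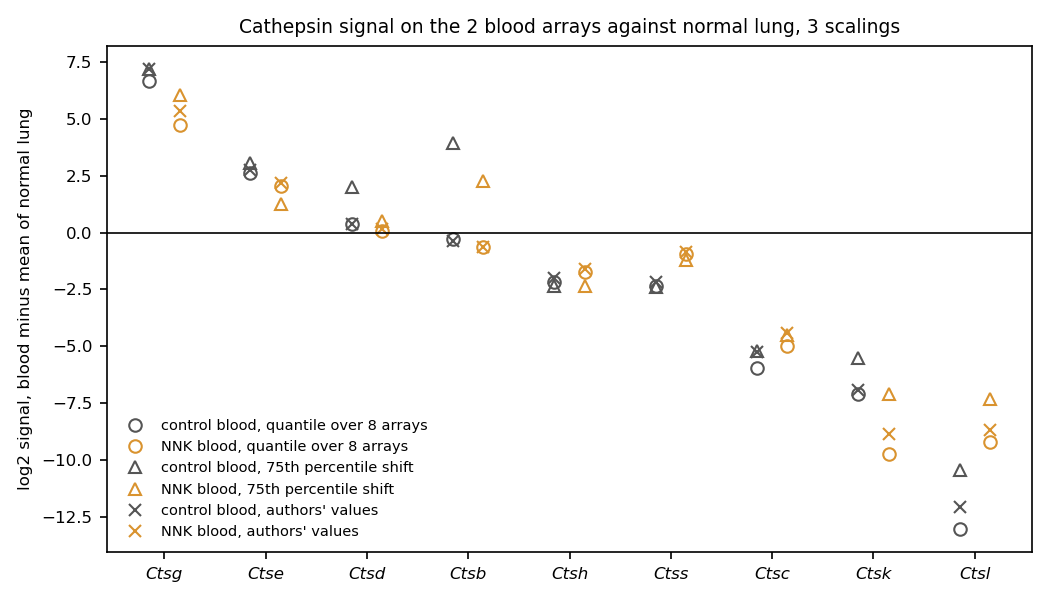
Log2 signal of each cathepsin on the control blood (grey) and NNK blood (orange) arrays minus the mean of the 3 normal lung arrays. Circles are quantile normalization over 8 arrays, triangles the 75th percentile shift and crosses the authors' values; values of Ctsk in both bloods and of Ctsl in control blood were not above background. Ctsg and Ctse lie above 0 in both bloods, and Ctsb changes side with the scaling.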

How the data were processed

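Expression was measured on 8 1-colour arrays: 3 normal lung, 3 lung tumor, 1 control blood and 1 NNK blood. Groups came from the sample labels. For NNK blood the description field carries a tumor's text, but title, source and tissue say blood, and it was treated as blood. The authors deposited, per spot, the intensity that Agilent Feature Extraction 10.5.1.1 gave after background subtraction, not normalized between arrays, with its outlier and background marks, and a table of log2 values that they quantile-normalized over all 8 arrays, used here as an alternative.

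Processed signals of non-control spots were put on the log2 scale and quantile-normalized separately over the 6 lung and the 2 blood arrays (R 4.3.3, limma 3.58.1). Outlier-marked spots were left out; 0 spots were saturated. In lung, probes well above background on at least 3 arrays (15803) were kept, and 3332 of them were not tested because marks left fewer than 2 arrays in a group. Cathepsins lost in this way (Ctsc, Ctse and Ctsk) were taken from the same fit with marked spots kept. Lung groups were compared with lmFit and eBayes (group only, two-sided) with Benjamini-Hochberg adjustment over all probes tested, and calls needed 2-fold and an adjusted p of 0.05. Blood was compared by fold alone. A group with no array above background entered a bound with, per array, the higher of its own value and the lowest value of a probe with all spots above background. Precision is limited by the number of arrays. Names of mRNA probes came from the RefSeq transcripts in GRCr8, which matched 14274 (93.2%).

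All cathepsins are named; of each list of related genes, the 3 largest rises and falls among those called, and the substrates and inhibitors of a cathepsin; 1 gene of the rule is not reported here. Gzma, Gzmb, Kng1, Prcp, Ifi30 and the untested or uncalled relatives were chosen after their values were seen. The members and lists were chosen with earlier results of these data known. Labels call the tumors matched to the normal tissues; deviations of same-numbered arrays from their group means correlated at 0.143, -0.0406 and 0.16 over 11359 probes. On simulated data with 200 of 11359 probes changed, 82% of those changed by 1.5 and 90% of those changed by 2 (log2) were called, with 4 false calls; smaller changes, such as most cathepsins show, were not simulated. Alternatives were the 75th percentile shift, normalization over 8 arrays, normexp with an offset of 50, a floor of 5, filters, the authors' values, the methods' t-test, the replicate block, the scan as a block, near-identical arrays counted once and each lung array left out; normexp used the median signal of each spot.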

Additional observations from a re-analysis of the deposited data

How the results depend on the processing

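Every tested cathepsin kept its direction in lung under every alternative that gave it a value. The replicate block left the same counts of cathepsins, 1 called higher and 0 lower, and 1614 and 1945 of all probes against 1683 and 1929 without it; it ended no cathepsin call. Leaving out each lung array in turn gave 1 cathepsin called higher and 0 lower each time, 6 to 8 of the listed genes higher and 6 to 8 lower, and 1551 to 1817 and 1772 to 2160 of all probes. The authors' normalized values, in which no spot is left out, gave 3 cathepsins called higher (with Ctse) and 15 listed genes. Keeping marked spots gave 2 and 12. Counting near-identical arrays once gave 0 cathepsins, 3 listed genes higher and 4 lower, and 655 and 820 of all probes, with 1 normal against 2 tumor samples. With normexp 4 listed genes were higher, and 967 of all probes were higher and 1256 lower. The methods' paired t-test after Benjamini-Hochberg adjustment called 1090 probes higher, and Ctsc missed it (adjusted p = 0.0828). In blood, 4 cathepsins were at least 2-fold lower with the 75th percentile shift, 0 with normexp and 2 with no filter on dim probes, against 1. The cause of these changes was not tested. Each cathepsin rests on 1 spot per array, and some arrays were near-identical, so the p-values may cover less than the spread between animals; blood rests on 1 array per group.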
